A study of Mus musculus with 4 samples.

Results

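CD8 T cells, the lymphocytes that carry the CD8 coreceptor and kill cells presenting their antigen on MHC class I, were examined in subcutaneous (s.c.) Lewis lung carcinoma (LLC) tumors at 72 h after hypofractionated radiotherapy. A barcode of the single-cell RNA sequencing data was taken as a CD8 T cell when it held at least 1 UMI (unique molecular identifier, 1 count of an RNA molecule) of Cd8a or Cd8b1 and at least 1 UMI of Cd3e, Cd3d, Cd3g or Trac, no UMI of Foxp3, Cd4 or Csf1r, and at most 1 UMI of Rhox5, a gene of the tumor cells. In total, 437 of 55058 barcodes that passed the depth filter (200 or more genes, mitochondrial UMIs no more than 20%) met this rule. Members were thus selected on their measured UMIs of these genes, and the levels of those genes are not given as findings.

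LLC is an established mouse lung carcinoma line. All tumors grew under the skin of C57BL/6N mice (written C57/BL6N in the sample labels) of 6 to 8 weeks of age, for which no engineered allele is named. For the mock-treated group (NT), 3 tumors were pooled into 1 library. The radiotherapy group (RT) had 1 library for each of 3 tumors, called RT1, RT2 and RT3, and these tumors had received 24 Gy in 3 fractions of 8 Gy. NT had no replicate, so no test between NT and RT was made. NT and RT were compared by the size of the difference, and tests were reserved for comparisons of cells within the same 4 libraries.

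Antigen drives a CD8 T cell from a naive or memory state, kept by factors such as TCF1 (the product of Tcf7), into an effector that divides and stores perforin and granzymes in secretory granules. Perforin lets the granzymes, a family of serine proteases, enter the target cell, where granzyme B starts apoptosis. Under lasting antigen in tumors, such cells take up inhibitory receptors including PD-1 (Pdcd1), CTLA-4 (Ctla4) and TIM-3 (Havcr2), with the nuclear factor TOX as a main regulator of this exhausted state.

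NT contributed 119 members, RT1 63, RT2 179 and RT3 76. Their share of kept barcodes was 1.19% in NT (exact Clopper-Pearson 95% interval 0.989 to 1.43), 0.419% in RT1 (0.322 to 0.536), 1.19% in RT2 (1.03 to 1.38) and 0.505% in RT3 (0.398 to 0.631). RT1 and RT3 lay below NT and RT2 was level with it, with an RT mean of 0.706% ± 0.425 (SD, n = 3). Among the barcodes gated as CD8 T, NK or regulatory T cells, CD8 T cells made up 59.8% in NT, 31.0% in RT1, 51.3% in RT2 and 41.5% in RT3. Here all RT libraries were below NT, although the intervals of NT (52.6 to 66.7) and RT2 (45.9 to 56.6) overlapped. The intervals cover counting error only.

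The members were shallow cells, with a median of 1656 UMIs in NT, 1520 in RT1, 2305 in RT2 and 1412 in RT3. Their UMIs summed to 249346, 112796, 528485 and 158029, respectively, so that 3 UMIs, the limit that a count of 0 allows, corresponded to 12.0, 26.6, 5.68 and 19.0 CPM, the usual scaling of a gene's counts to a common total. For the members RT2 was the deepest library, while over all kept barcodes the median was 5709 UMIs in NT and 5199 in RT2. The deposited table of RT2 differed from the others, with 18605 features in place of 32285 and no barcode above 11.95% mitochondrial UMIs. Between 182 and 277 barcodes were shared by each pair of libraries, and 4, 7, 12 and 1 members of NT, RT1, RT2 and RT3 carried a barcode that was also present in another library.

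T cell genes outside the rule were present in every library. Trbc2, a constant chain of the T cell receptor, stood at 2615 CPM in NT and at 2012, 3115 and 1917 CPM in the RT libraries. Thy1, a T cell surface protein, stood at 1315 CPM in NT and at 1897, 1826 and 1493 CPM in the RT libraries. At the edge of the rule, 23 members had 1 UMI each of the Cd8 and of the CD3 and Trac genes, with a median of 834 UMIs per cell and a Thy1 level of 1107 CPM, against 1705 CPM in the 332 members with at least 2 UMIs of both. Just outside it, 46 barcodes met the rest of the rule, with a Cd8 UMI, but had no CD3 or Trac UMI, and their Thy1 level was 308 CPM. The 13 barcodes removed for a single Csf1r UMI had 1804 CPM of Lyz2, the lysozyme of myeloid cells.

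RNA of other cell types was found in some members. The 7 fibroblast markers summed to 3076 CPM in NT, 1543 CPM in RT1, 92.7 CPM in RT2 and 94.9 CPM in RT3, with Col1a1 the most abundant in NT. In NT, 757 of 767 of these UMIs (98.7%) lay in 1 member of 10127 UMIs that had 1 Cd8 UMI and 2 UMIs of the CD3 and Trac genes. In RT1, 165 of 174 lay in 1 member. The 14 macrophage and monocyte markers summed to 112 CPM in NT, with Ccr2 the most abundant and 6 of them at 0, and to 319, 344 and 266 CPM in the RT libraries, with Lyz2 leading. The 7 neutrophil markers were all at 0 in NT and summed to 807 CPM in RT1, 58.2% of it from 1 cell, 85.1 CPM in RT2 and 19.0 CPM in RT3. Endothelial and red cell markers summed to at most 16.0 CPM, B cell markers to at most 97.5 CPM, and dendritic cell markers to between 133 and 233 CPM. The 11 tumor markers summed to 3477 CPM in NT and to 4903, 5983 and 5410 CPM in the RT libraries, higher in each, with 2 of them at 0 in NT and 3 in each RT library. Vim, which T cells also express, was the most abundant with 1813 CPM in NT and 2367, 3052 and 3107 CPM in the RT libraries, while the keratin gene Krt8 stood at 44.1 CPM in NT and at 53.2, 30.3 and 44.3 CPM. The part of tumor RNA in the comparisons was not tested further. NK markers summed to 537, 257, 452 and 506 CPM in the members, led by Gzma, Txk, Xcl1 and Xcl1. Markers of regulatory and CD4 T cells summed to 497 CPM in NT and to 709, 806 and 721 CPM in the RT libraries, higher in each. Ctla4 led them in NT, RT1 and RT2, and Il2ra in RT3. Gamma delta T cell markers summed to 132 CPM in NT and to 177, 272 and 120 CPM. The gene counts and list medians of RT against NT were therefore also computed without the 39 members that held 3 or more UMIs of the fibroblast, neutrophil and macrophage markers. These were 2 members of NT, 8 of RT1, 25 of RT2 and 4 of RT3. Ccr2 was left out of this marker count, which covered 27 genes.

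For the comparison of RT with NT, UMIs were summed over the members of a library, and levels are CPM of these sums, with the 3 values of RT given in the order of the libraries. A gene was taken as different when its log2 ratio to NT was at least 1 in the same direction in every RT library (a 2-fold difference). Of 3133 genes measured, 64 were higher in RT (2.04%) and 35 were lower (1.12%). Exact Poisson 95% intervals were apart from NT for 27 and 13 genes past 2-fold, and leaving out RT1, RT2 or RT3 gave 76, 104 and 106 higher and 63, 59 and 67 lower. The median log2 ratio over all measured genes was −0.09 ± 0.06 (SD over the 3 RT libraries). The 10 genes with the highest minimum ratio were Gzme, Gzmf, Gzmd, Lyz2, Cdkn1a, Slc28a2, S100a9, Ccl6, Cst3 and Ier3. Of these, Lyz2, S100a9 and Ccl6 are myeloid genes, and Cst3 is abundant in macrophages and tumor cells. Lyz2 in the members was only 0.102%, 0.715%, 0.916% and 0.818% of its level in macrophages of the same libraries. Without the 39 members named above, which were picked in part by Lyz2 and S100a9 themselves, S100a9 had no UMI in NT and RT1 and stood at 9.54 and 7.03 CPM in RT2 and RT3, so it is not read as a gene of CD8 T cells. The log2 ratio was then 2.56 ± 0.32 for Lyz2 (3.27 with them), 2.12 ± 0.31 for Ccl6 (2.81) and 2.03 ± 0.31 for Cst3 (2.35), lower for each but above NT. Free RNA of other cells in these genes was not tested. Without the same members, 63 genes were higher, 49 of them shared with the 64, and 21 were lower, 17 of them shared with the 35.

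By the smallest ratio over the RT libraries, granzyme genes differed most between RT and NT in CD8 T cells. Gzmd stood at 100 CPM in NT and at 2137, 1171 and 2303 CPM in the RT libraries. Gzme stood at 28.1 CPM in NT and at 798, 568 and 804 CPM in the RT libraries. Gzmf stood at 365 CPM in NT and at 4486, 4662 and 7866 CPM in the RT libraries. For all 3 genes every RT library was far above NT, and the exact Poisson 95% intervals did not overlap. The RT means were 18.7, 25.8 and 15.5 times NT for Gzmd, Gzme and Gzmf, with log2 ratios of 4.13 ± 0.54, 4.57 ± 0.29 and 3.90 ± 0.45 (SD, n = 3). Gzmc followed with 217 CPM in NT and 550, 509 and 1177 CPM in the RT libraries, a mean 3.44 times NT. Gzmg had no UMI in NT and 106, 45.4 and 25.3 CPM in the RT libraries, which makes the RT mean at least 4.91 times the level of 3 UMIs in NT. RT1 raised this mean most, and RT3 lay nearest to the 12.0 CPM that 3 UMIs equal in NT. Values changed little without the 39 members with RNA of other types, with log2 ratios of 4.10, 4.51 and 3.94 for Gzmd, Gzme and Gzmf.

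Gzmb, the granzyme most used as a marker of killing, did not follow. Of 17 cytotoxic genes measured, 11 were higher and 2 lower than NT in every RT library by any amount, beside 21.5% and 32.7% of all measured genes, and their median log2 ratio was 0.56 ± 0.26 (0.85 with a level minimum of 100 CPM). Gzmb stood at 3818 CPM in NT and at 4451, 3824 and 4056 CPM in the RT libraries, a log2 ratio of 0.10 ± 0.11. NT was the lowest of the 4 libraries but by less than the spread among RT. Prf1, the perforin gene, stood at 670 CPM in NT and at 1108, 1107 and 671 CPM in the RT libraries, with RT3 level with NT. Gzma, a granzyme that is high in NK cells, went the other way, from 156 CPM in NT to 17.7, 22.7 and 69.6 CPM in the RT libraries, all of which were lower.

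Gzmb, Gzmc, Gzmd, Gzme, Gzmf and Gzmg lie side by side on mouse chromosome 14. The bases before the start sites of 4 of these genes are printed so that Gzmd, Gzme and Gzmf, the genes with the largest differences between RT and NT, can be set beside Gzmb. The 250 bases before each start site are from RefSeq on GRCm38.p6, minus strand, 5′ to 3′ along the gene, at chr14:56132594-56132843 for Gzmd, chr14:56120626-56120875 for Gzme, chr14:56211408-56211657 for Gzmf and chr14:56262335-56262584 for Gzmb. Capitals mark the RUNX core motif TGTGGT on either strand and the AP-1 motif TGANTCA.
Gzmd: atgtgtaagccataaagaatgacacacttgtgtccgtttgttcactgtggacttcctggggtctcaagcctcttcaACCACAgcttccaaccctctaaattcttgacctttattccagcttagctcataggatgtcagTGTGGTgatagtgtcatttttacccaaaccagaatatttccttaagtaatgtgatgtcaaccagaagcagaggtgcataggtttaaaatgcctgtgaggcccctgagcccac
Gzme: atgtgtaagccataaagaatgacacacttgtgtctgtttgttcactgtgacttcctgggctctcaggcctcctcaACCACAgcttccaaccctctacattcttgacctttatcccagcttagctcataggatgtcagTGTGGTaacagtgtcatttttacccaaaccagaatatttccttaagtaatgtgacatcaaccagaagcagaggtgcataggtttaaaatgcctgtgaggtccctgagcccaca
Gzmf: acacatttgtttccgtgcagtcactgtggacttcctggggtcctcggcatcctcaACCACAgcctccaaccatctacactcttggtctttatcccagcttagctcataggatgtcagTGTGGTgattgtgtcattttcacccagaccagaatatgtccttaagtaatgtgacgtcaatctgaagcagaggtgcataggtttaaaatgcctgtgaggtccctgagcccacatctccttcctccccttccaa
Gzmb: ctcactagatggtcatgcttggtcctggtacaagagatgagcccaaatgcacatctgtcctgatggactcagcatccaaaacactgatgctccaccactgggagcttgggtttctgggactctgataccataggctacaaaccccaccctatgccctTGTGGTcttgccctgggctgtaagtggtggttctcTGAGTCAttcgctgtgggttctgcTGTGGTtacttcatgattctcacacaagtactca

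The Gzmd and Gzme sequences were 94.8% identical over their global alignment, and Gzmf was 74.5% and 74.9% identical to Gzmd and Gzme. Gzmb was 44.9%, 43.8% and 47.4% identical to Gzmd, Gzme and Gzmf. Gzmc, with a smaller difference between RT and NT, was 80.5% and 80.9% identical to Gzmd and Gzme, and Gzmg was 82.4% identical to Gzmf, both closer than Gzmf to Gzmd, so that identity did not follow the order of the RT differences. The RUNX core motif was matched at 2 places in each of the 6 windows of this cluster (Gzmc and Gzmg included), while 14.2% of 27025 mouse promoter windows of the same length held it at least once. In Gzmd the matches began at −174 and −112 relative to the start site, in Gzme at −175 and −113, in Gzmf at −195 and −133 and in Gzmb at −93 and −34. The AP-1 motif was matched in the window of Gzmb alone, at −58, and in 6.87% of all windows. The T-box motif GGTGTGA (3.31% of all windows) and the TATA box TATAAA (13.0%) had no match in the 6 windows, which says only that these letters are not there. The transcripts are also alike, since the last 300 bases of Gzmd were 84.0% identical to those of Gzme and 85.0% to those of Gzmf in GENCODE vM21, with identical runs of up to 96 and 71 bases in the whole transcripts. How reads were split among these paralogs is not given in the sources used here, so the division of UMIs among Gzmd, Gzme, Gzmf and Gzmg is uncertain, while Gzmb is distinct from them (at most 47.2% in the last 300 bases).

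**Figure D1:**
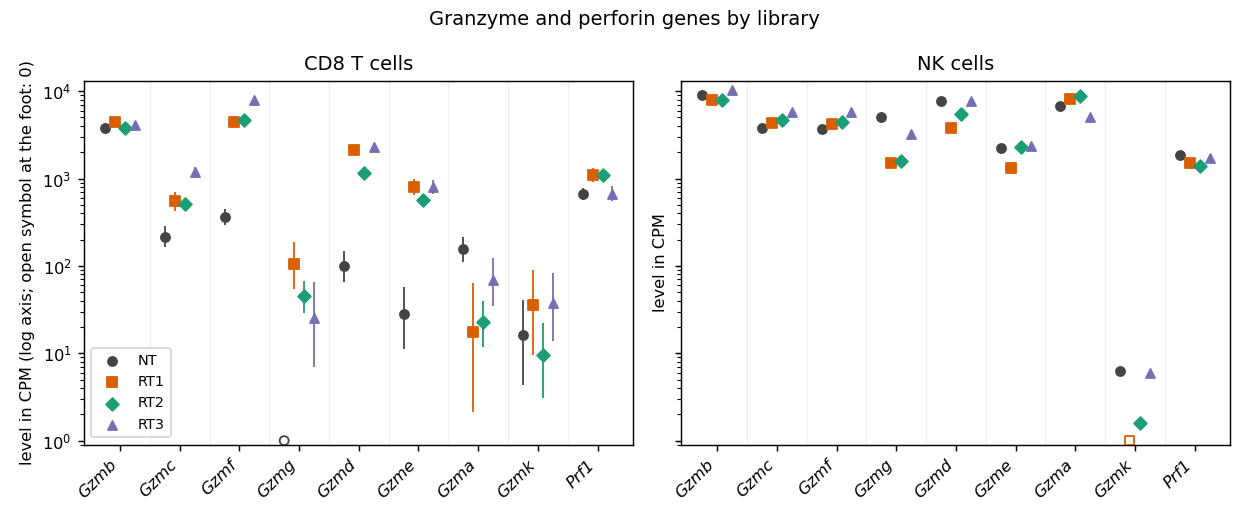
Levels of granzyme and perforin genes in CPM on a log axis, in CD8 T cells (left, bars are exact Poisson 95% intervals of the summed UMIs, drawn no lower than 1 CPM) and in NK cells (right) of NT, RT1, RT2 and RT3, with an open symbol at the foot for 0. In CD8 T cells the RT libraries stand above NT for Gzmc, Gzmf, Gzmg, Gzmd and Gzme and together with it for Gzmb, and in NK cells the NT library lies within or near the RT range for Gzmd, Gzme and Gzmf.

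The granzyme UMIs were unevenly spread among the members. A UMI of any of Gzmc, Gzmd, Gzme, Gzmf and Gzmg was present in 23 of 119 cells in NT (19.3%), 28 of 63 in RT1 (44.4%), 92 of 179 in RT2 (51.4%) and 44 of 76 in RT3 (57.9%). The 12, 7, 18 and 8 members with the most of these UMIs held 91.0%, 70.6%, 74.3% and 73.8% of them, and a single RT2 cell held 408 of 3676. Cells with such a UMI were also deeper, with median UMIs of 2449, 2020.5, 2816 and 1967.5 against 1553, 1200, 1984 and 1125.5 in cells without. After thinning every cell to 1000 UMIs, which left out 20, 18, 26 and 21 shallower members, Gzmf was detected in 11.1% of cells in NT and 37.8%, 32.7% and 49.1% in the RT libraries. Unthinned, the shares were 16.0%, 34.9%, 41.3% and 44.7%. At the same depth Gzmf was found in at most 0.4% of tumor cells and in 0 of 500 macrophages of each library, an exact upper limit of 0.735% for a UMI at that depth. Unthinned, it was found in 0.0997% to 0.885% of tumor cells and in 0% to 0.815% of macrophages, both highest in RT2. Tumor cells and macrophages had unthinned medians of 6571.5 to 9412 and 2199 to 3631.5 UMIs. Of the members with a Gzmf UMI, 18 of 19, 20 of 22, 69 of 74 and 29 of 34 also had one of Gzmb, and 0, 0, 1 and 0 had one of Tcf7.

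Several targets of p53, the transcription factor activated by DNA damage, were higher in RT. Cdkn1a, the cell cycle inhibitor p21, stood at 48.1 CPM in NT and at 426, 666 and 468 CPM in the RT libraries. All RT libraries were above NT with intervals apart, and the RT mean was 10.8 times NT. Mdm2, the ubiquitin ligase that limits p53, stood at 76.2 CPM in NT and at 168, 204 and 259 CPM in the RT libraries. Pmaip1, the proapoptotic protein NOXA, stood at 233 CPM in NT and at 931, 405 and 506 CPM in the RT libraries. Ccng1, cyclin G1, stood at 168 CPM in NT and at 479, 293 and 367 CPM in the RT libraries. All RT levels of these 3 genes were above NT. The intervals were apart for Pmaip1 and Ccng1, which stayed under 2-fold in RT2, and overlapped for Mdm2, which passed 2-fold.

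Of 12 p53 targets measured among 24 in the list, 8 were higher in every RT library and none was lower, beside 21.5% and 32.7% of all measured genes. Cdkn1a, Mdm2 and Ei24 passed 2-fold. The median log2 ratio of the list was 0.87 ± 0.17, against −0.09 over all genes. Bax and Btg2 lay on both sides of NT. H2afx, the histone variant phosphorylated at DNA breaks, stood at 181 CPM in NT and at 62.1, 85.2 and 75.9 CPM in the RT libraries, all lower by more than 2-fold, but with intervals that overlapped. At 1000 UMIs per cell a Cdkn1a UMI was found in 6.06% of NT members and 35.6%, 39.2% and 32.7% of RT members (unthinned 7.56%, 44.4%, 58.1% and 44.7%).

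Macrophages carry Cdkn1a too, and at the same depth a UMI was found in 127, 293, 336 and 250 of 500 macrophages of NT and the RT libraries, against 2.0% to 5.2% of tumor cells. The Cdkn1a level of CD8 T cells was 14.0%, 35.1%, 38.2% and 43.4% of that of macrophages. The part of RNA from macrophages in Cdkn1a was not tested further. Without the 39 members with RNA of other types, the log2 ratio of Cdkn1a was 3.38 ± 0.45 against 3.36 ± 0.33 with them. NK cells of the same libraries, side by side, had 100 CPM of Cdkn1a in NT and 505, 546 and 370 CPM in the RT libraries, and 75.2 CPM of Mdm2 in NT and 340, 297 and 331 CPM in the RT libraries.

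**Figure D2:**
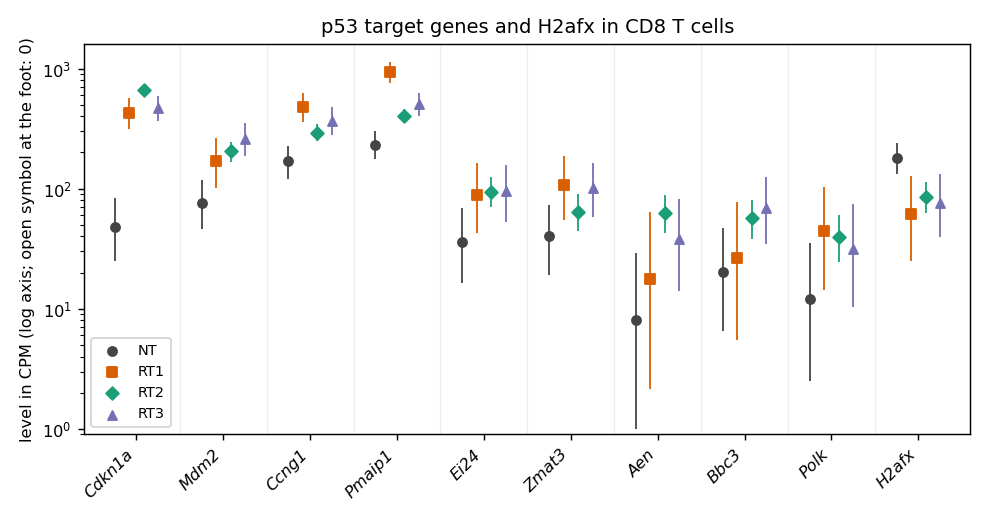
Levels of p53 target genes and of H2afx in CD8 T cells in CPM on a log axis for NT, RT1, RT2 and RT3, with exact Poisson 95% intervals as bars, drawn no lower than 1 CPM. The 3 RT libraries stand above NT for Cdkn1a (48.1 CPM in NT), Mdm2, Ccng1 and Pmaip1, and below it for H2afx; Aen, Bbc3 and Polk are under the 50 CPM needed to count as measured.

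Inhibitory receptors did not move together. Pdcd1 stood at 401 CPM in NT and at 479, 770 and 367 CPM in the RT libraries, on both sides of NT. Ctla4 stood at 301 CPM in NT and at 266, 288 and 253 CPM in the RT libraries, slightly below NT throughout but with overlapping intervals. Havcr2 stood at 156 CPM in NT and at 275, 274 and 165 CPM in the RT libraries. Lag3 and Tigit were close to the limit of detection, with at most 47.3 and 17.0 CPM. Entpd1, the ectonucleotidase CD39, was the exception, with 32.1 CPM in NT and 97.5, 104 and 82.3 CPM in the RT libraries, all more than 2-fold higher. The Entpd1 interval of NT overlapped those of RT1 and RT3. Of 8 inhibitory receptors measured, 2 were higher and 4 lower in every RT library, where all measured genes gave 21.5% and 32.7%, with a median log2 ratio of −0.05 ± 0.13, which became 0.18 without the 10% of members with the most UMIs and 0.11 with a level minimum of 100 CPM. The count of higher genes was near that of all genes. The share of cells with a Pdcd1 UMI changed with the depth that was set. It was 18.2% in NT and 39.8% ± 11.6 in RT (SD, n = 3) at 1000 UMIs per cell, but 54.8% and 53.3% ± 11.6 at 2000 UMIs, so no difference in it was read. Shares at 2000 UMIs, here and below, leave out all shallower members, and the median member of NT, RT1 and RT3 was shallower. The cells compared therefore changed along with the depth. In tumor cells and macrophages Pdcd1 was not detected at 1000 UMIs.

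Regulators of the exhausted state lay on both sides of NT, with Tox past 2-fold lower. Tox stood at 309 CPM in NT and at 70.9, 123 and 108 CPM in the RT libraries, with intervals apart and a log2 ratio of −1.62 ± 0.38. At 2000 UMIs per cell, 40.5% of NT members and 16.4% ± 7.23 of RT members had a Tox UMI, while at 1000 UMIs the shares of 15.2% and 9.50% ± 7.55 lay within the RT spread. Nr4a1, an orphan receptor induced through the T cell receptor, stood at 1436 CPM in NT and at 576, 719 and 715 CPM in the RT libraries, a mean log2 ratio of −1.10 that missed 2-fold by a little in RT2. Nr4a2 and Nr4a3 were lower in every RT library as well, at 618 and 453 CPM in NT and at most 537 and 310 CPM in RT. Of 16 genes in this list measured, 9 were lower and 5 higher in every RT library, both above the shares of all measured genes (32.7% and 21.5%), and the median log2 ratio was −0.23 ± 0.08, which became −0.018 without the 10% of members with the most UMIs. Id2 and Irf4, factors of effector T cells, were among those higher, with 64.2 CPM of Irf4 in NT and 275, 203 and 69.6 CPM in the RT libraries.

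Of 7 genes of the memory and naive state measured, 5 were lower and 1 higher in every RT library, beside 32.7% and 21.5% of all measured genes, with a median log2 ratio of −0.41 ± 0.30. Ccr7, the receptor that leads T cells to lymph nodes, stood at 401 CPM in NT and at 248, 170 and 329 CPM in the RT libraries. Klf2, which keeps T cells in circulation, stood at 1159 CPM in NT and at 585, 1101 and 835 CPM. Il7r, the receptor for the survival cytokine IL-7, ran against the others with 32.1 CPM in NT and 79.8, 81.4 and 108 CPM in the RT libraries. All were more than 2-fold higher, but with intervals that overlapped. Tcf7 was below the level needed to count as measured.

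Several receptors for cytokines and secreted factors were higher in RT. Il2ra, the high-affinity IL-2 receptor chain CD25, stood at 48.1 CPM in NT and at 231, 172 and 285 CPM in the RT libraries, with intervals apart. It is also a marker of regulatory and CD4 T cells, whose summed markers were higher in every RT library. The part of such cells in Il2ra was not tested. Ifngr1, a chain of the interferon-γ receptor, stood at 417 CPM in NT and at 692, 577 and 652 CPM in the RT libraries, with intervals apart. Il6st, the shared IL-6 family chain gp130, went the other way, from 84.2 CPM in NT to 26.6, 18.9 and 31.6 CPM. Its NT interval overlapped those of RT1 and RT3. Of 15 cytokine receptors measured, 8 were higher and 2 lower in every RT library (21.5% and 32.7% of all measured genes), with a median log2 ratio of 0.52 ± 0.19.

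Among secreted factors, Csf2, the cytokine GM-CSF, stood at 20.1 CPM in NT and at 222, 102 and 82.3 CPM in the RT libraries. Tnf stood at 72.2 CPM in NT and at 434, 187 and 120 CPM. Csf1, the growth factor of macrophages, stood at 84.2 CPM in NT and at 213, 193 and 146 CPM. Each of these 3 was higher in every RT library, but the intervals of NT and RT3 overlapped for each. Of 11 T cell chemokines and cytokines measured, 4 were higher and 3 lower in every RT library, beside 21.5% and 32.7% of all measured genes. Their median log2 ratio was 0.31 ± 0.24. Csf2 alone of the 3 was 2-fold higher throughout. Ifng was not separated, with 473 CPM in NT and 1161, 918 and 468 CPM in the RT libraries. Icam1, an adhesion ligand, was also among the 64, with 56.2 CPM in NT and 310, 250 and 190 CPM in the RT libraries. S100a4, a calcium-binding protein, stood at 798 CPM in NT and at 3192, 2853 and 2582 CPM in the RT libraries. Both had intervals apart, and both were picked here after their values were seen.

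**Figure D3:**
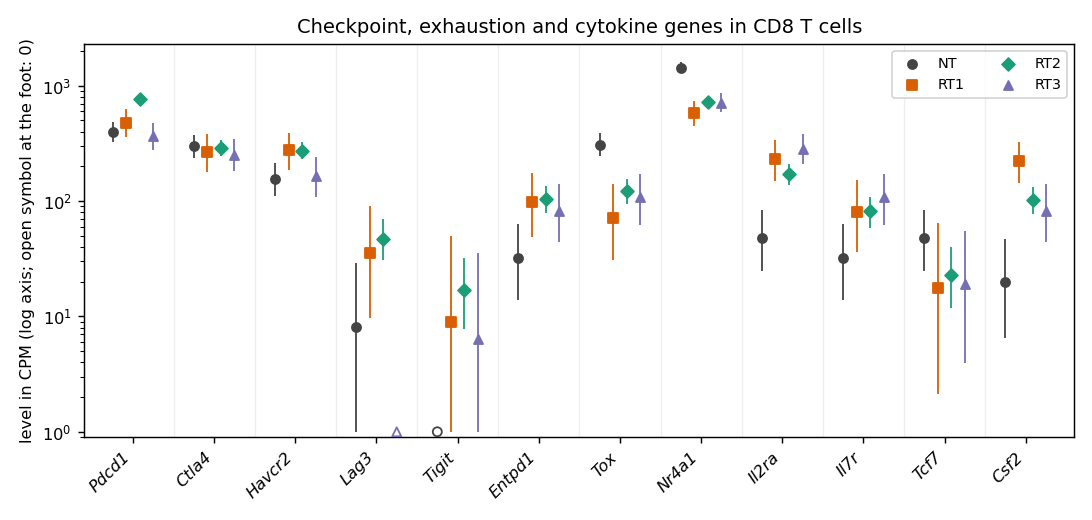
Levels of inhibitory receptors, regulators of exhaustion, cytokine receptors, Tcf7 and Csf2 in CD8 T cells in CPM on a log axis for NT, RT1, RT2 and RT3, with exact Poisson 95% intervals as bars, drawn no lower than 1 CPM, and an open symbol at the foot for 0. Tox and Nr4a1 lie lower in the 3 RT libraries than in NT, Il2ra, Il7r, Entpd1 and Csf2 lie higher, and Pdcd1 lies on both sides of NT.

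Genes of the cell cycle were lower in part. Of 18 mitosis and proliferation genes measured, 11 were lower and none was higher in every RT library (all measured genes 32.7% and 21.5%), and the median log2 ratio was −0.58 ± 0.43. Mki67 stood at 221 CPM in NT and at 97.5, 114 and 152 CPM in the RT libraries. Plk1, a mitotic kinase, stood at 140 CPM in NT and at 62.1, 54.9 and 75.9 CPM. RT3 was nearest to NT for this list, with Cdk1 at 297 CPM against 249 CPM in NT. A UMI of Mki67 or Top2a was found in 32.3% of NT members and 17.8%, 16.3% and 27.3% of RT members at 1000 UMIs per cell. At 2000 UMIs per cell the shares were 52.4% in NT and 39.1%, 30.7% and 53.8% in the RT libraries, RT3 lying above NT, and the difference of the RT mean from NT (−11.2 percentage points) was within the SD over the RT libraries (11.7). In tumor cells, which divide, the shares at 1000 UMIs ran from 15.4% in RT2 to 30.2% in NT.

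Most of the genes with the largest lower ratios came from a single barcode. Saa3, Iigp1, Rnd1, Ptgs2, Thbs2, Gm26917, Dcn, Sparc, Serpinh1 and Col1a2 had the 10 largest minimum differences. For 13 of the 35 lower genes, more than 50% of the NT UMIs were in the NT member with fibroblast RNA, including all 28 UMIs of Saa3, all 25 of Rnd1 and all 39 of Thbs2. These 13 are therefore not read as genes of CD8 T cells. Tox, Gzma, H2afx and the non-coding Gm26917 had no UMI in that cell.

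**Figure D4:**
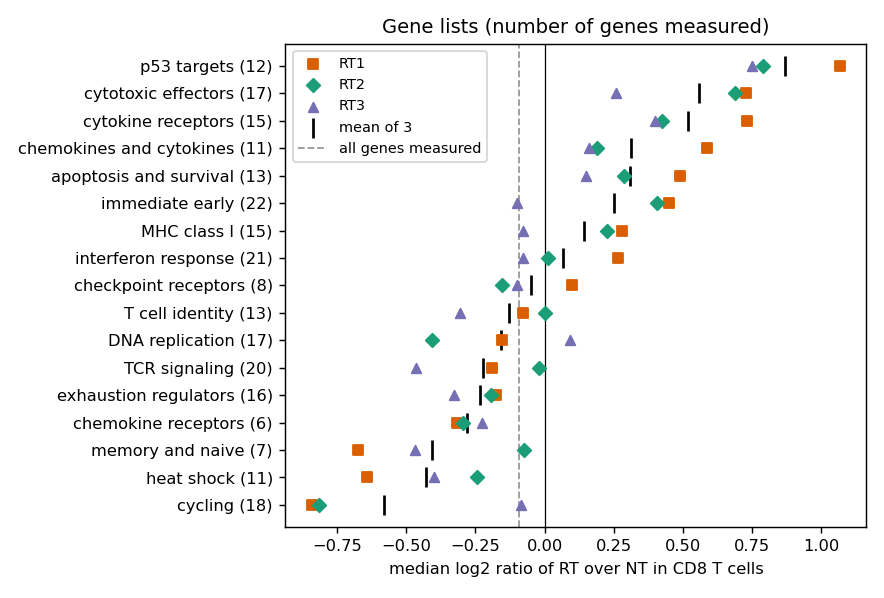
Median log2 ratio of RT over NT in CD8 T cells for 17 gene lists (number of genes measured in brackets), with a symbol for RT1, RT2 and RT3, a bar for their mean, and a dashed line for the median over all measured genes (−0.09). The p53 target list (0.87) and cytotoxic list (0.56) lie farthest to the right and the heat shock (−0.43) and cycling (−0.58) lists farthest to the left, with RT3 near 0 for cycling.

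CD8 T cells were then compared with the 456 NK cells of the same libraries (64, 137, 156 and 99 in NT, RT1, RT2 and RT3), gated by a UMI of Ncr1 or Klrb1c, the same limit on Rhox5, and no UMI of the Cd8, CD3 and Trac genes, Foxp3, Cd4 or Csf1r. Of 4077 genes tested with edgeR's quasi-likelihood test on the summed UMIs with the library as a block, 247 were higher (6.06%) and 225 lower (5.52%) in CD8 T cells at a Benjamini-Hochberg adjusted p under 0.05. Of 13 T cell identity genes tested, 9 were higher in CD8 T cells and 1 lower, which the gates in part set, and 5 of 10 were higher without RT2. The calls numbered 95 higher and 103 lower without RT2, and 137 and 164 higher without RT1 and without RT3. Lck, the kinase bound to CD8, stood at 681, 553, 683 and 756 CPM in CD8 T cells of NT, RT1, RT2 and RT3 and at 389, 434, 364 and 278 CPM in NK cells (log2 fold change 0.84 ± 0.15, SE, adjusted p = 0.001631 by edgeR).

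Of 8 inhibitory receptors tested, 4 were higher and 1 was lower in CD8 T cells, and of 16 exhaustion regulators 8 and 2. Of 10 costimulatory receptors 7 were higher and 1 was lower, and of 6 chemokine receptors 2 and 2. All tested genes gave 6.06% higher and 5.52% lower. Pdcd1 stood at 403, 481, 774 and 368 CPM in CD8 T cells and at no more than 9.50 CPM in NK cells of any library (log2 fold change 6.41 ± 0.29, adjusted p = 1.066e-09 by edgeR). Tnfrsf4, the costimulatory receptor OX40, had no UMI in NK cells of any library and 139 CPM over the 4 libraries in CD8 T cells, at least 67.1 times the level of 3 UMIs over all NK cells. Irf4 (log2 fold change 7.28), the chemokine receptor Cxcr6 (4.63) and Tox (3.36) were higher in CD8 T cells of all 4 libraries. Ctla4 was higher by 1.36 ± 0.19 (adjusted p = 0.0001217 by edgeR) and Ifng by 1.45 ± 0.19 (adjusted p = 8.971e-05 by edgeR). Havcr2 was higher by 1.12 ± 0.33, with the cell types level in NT at 157 CPM each (adjusted p = 0.03781 by edgeR), a call that was lost without RT1 (adjusted p = 0.213) or without RT2 (0.409), with DESeq2 (0.116), with no library block (0.0873) and among cells above the median depth (0.0728).

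Csf1 stood at 84.6, 214, 194 and 146 CPM in CD8 T cells and at 0, 21.8, 15.8 and 8.88 CPM in NK cells (log2 fold change 3.61 ± 0.30, adjusted p = 4.596e-07 by edgeR). CD8 T cells were above NK cells in every library.

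Granzymes were the reverse, with 9 of 18 cytotoxic genes tested lower in CD8 T cells and 1 higher. Gzma stood at 157, 17.8, 22.8 and 69.9 CPM in CD8 T cells and at 6739, 8151, 8825 and 5017 CPM in NK cells (log2 fold change −6.91 ± 0.36, adjusted p = 3.928e-09 by edgeR). Gzmb was 42.2%, 56.8%, 47.8% and 39.5% of its NK level (log2 fold change −1.17 ± 0.09, adjusted p = 4.023e-07 by edgeR). Gzmd was 1.31% of its NK level in NT and 56.9%, 21.3% and 29.7% in the RT libraries, and Gzme was 1.26% and 60.2%, 24.6% and 34.0%. Gzmd and Gzme were lower over the 4 libraries together (log2 fold changes −2.44 ± 0.51 and −2.18 ± 0.44, adjusted p = 0.004242 and 0.00342 by edgeR), calls that DESeq2 did not make (adjusted p = 0.111 and 0.172) and that were lost without RT2 (0.0629 and 0.0589). Gzmf was 9.92% of its NK level in NT but 106%, 104% and 137% of it in the RT libraries, and did not pass the test over all 4 (log2 fold change −0.53 ± 0.40, adjusted p = 0.4964 by edgeR). All 9 NK markers tested were lower in CD8 T cells, which the gate of the NK cells in part sets, and Klra4, an NK receptor, was at 0 in the CD8 T cells of NT, RT1 and RT3. Gzma in CD8 T cells was at 2.32%, 0.218%, 0.258% and 1.39% of its NK level. The part of NK RNA in the granzyme levels of the members was not tested further.

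**Figure D5:**
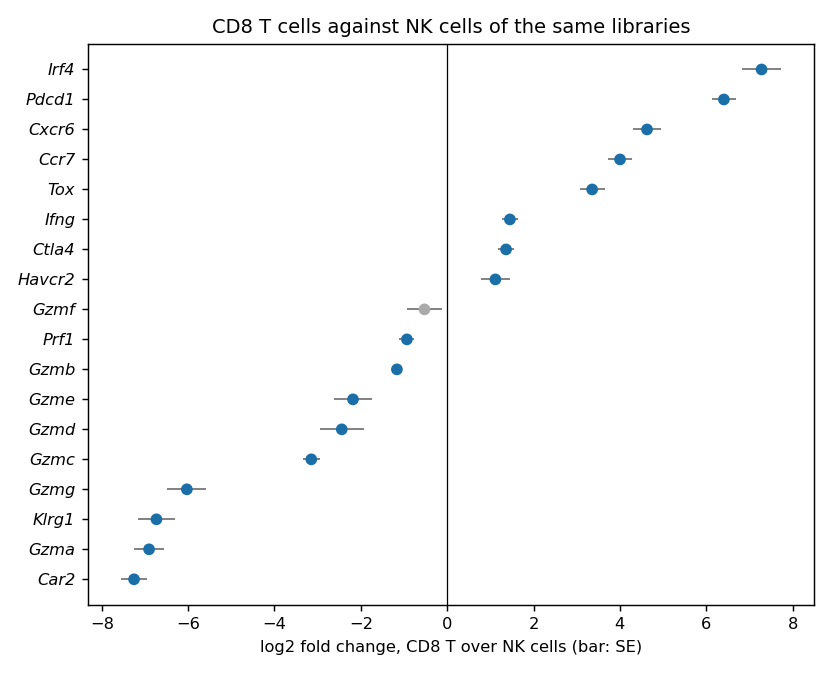
Log2 fold changes between CD8 T cells and NK cells over 4 libraries (edgeR, library as a block), with bars for the SE, blue for an adjusted p under 0.05 and grey above it. Irf4, Pdcd1, Cxcr6, Ccr7 and Tox lie to the right, Gzmf near 0, and Gzmg, Klrg1, Gzma and Car2 farthest to the left.

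The comparison with regulatory T cells was thin, since those numbered 16, 3, 14 and 8. Of 1531 genes tested, 132 were higher (8.62%) and 57 lower (3.72%) in CD8 T cells by edgeR. There were 77 and 22 without RT2, and 65 higher without NT. Of 13 cytotoxic genes tested, 10 were higher and none was lower. Prf1 stood at 673, 1114, 1113 and 673 CPM in CD8 T cells and at 62.1, 0, 0 and 61.2 CPM in regulatory T cells (log2 fold change 4.66 ± 0.50, adjusted p = 1.981e-08 by edgeR). Gzmf (8.67), the chemokine Ccl3 (4.92) and the killer receptors Klrd1 (6.25) and Klrc1 (5.70) were also higher in all 4 libraries. The regulatory T cells of RT1 held only 4484 UMIs together, so a count of 0 there, as for Prf1, sets a high limit. Klrd1 in the CD8 T cells of RT1 (642 CPM) lay under the level of 3 UMIs in that sum. Ctla4 was lower, at 302, 267, 289 and 254 CPM against 1242, 446, 1574 and 1040 CPM (log2 fold change −1.91 ± 0.28, adjusted p = 7.32e-06 by edgeR). The regulatory T cell genes Ikzf2 and Il2ra and the growth factor gene Areg were lower too (log2 fold changes −2.28, −1.94 and −4.28), Il2ra not without RT2 (adjusted p = 0.121).

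Within CD8 T cells, members with a Tcf7 UMI were few, 11, 2, 10 and 2 in NT, RT1, RT2 and RT3, and were set against the other members of their library. Of 1080 genes tested, 11 were higher (1.02%) and 23 lower (2.13%) by edgeR. There were 4 and 8 without RT2, 6 and 11 without NT, and 21 higher without RT1. The p-values of this split rest on a spread pooled over genes and hardly on that of each gene between libraries. RT1 and RT3 had only 2 Tcf7 members each. Gzmb stood at 37.7, 552, 2858 and 529 CPM in Tcf7 members and at 4290, 4539, 3892 and 4347 CPM in the others (log2 fold change −2.52 ± 0.37, adjusted p = 7.113e-09 by edgeR). Gzmf was at 0, 0, 41.4 and 0 CPM in Tcf7 members and at 410, 4584, 4911 and 8510 CPM in the others (log2 fold change −7.85 ± 0.69, adjusted p = 4.597e-26 by edgeR). Both were lower in Tcf7 members of every library. Havcr2 had no UMI in Tcf7 members, and the others had at least 5.23 times the level of 3 UMIs over them, a call that was lost without NT (adjusted p = 0.0572 by edgeR) or without RT2 (0.154). Prf1, Gzmc, Ccl3 and Ifng were lower as well, the Ifng call being lost without NT (adjusted p = 0.0572 by edgeR) and among members above the median depth (0.0858). The chemokine gene Cxcl10 was higher in Tcf7 members of every library, at 2449, 19890, 8409 and 10322 CPM against 1105, 3506, 1141 and 3416 CPM. Its log2 fold change was 1.865 ± 0.279 (adjusted p = 1.022e-08 by edgeR), a call lost with no filter on low counts (0.0979). Ly6c2, a marker of memory CD8 T cells, and Cxcr4, a chemokine receptor, were called higher in Tcf7 members, but both calls were lost without RT2 (adjusted p = 0.323 for each by edgeR) and with no filter on low counts (0.179 and 0.138), and that of Cxcr4 also among members above the median depth (0.481). In RT3 Cxcr4 ran the other way, with 176 CPM in Tcf7 members and 212 CPM in the others.

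Members with a UMI of Mki67 or Top2a numbered 48, 12, 57 and 26. Of 1711 genes tested, 120 were higher (7.01%) and 130 lower (7.6%) in them by edgeR. There were 72 lower without RT2 and 85 without NT, 59 higher and 36 lower by DESeq2, and 61 and 16 with no library block. All 12 cycling genes and all 14 replication genes tested were higher, which the split on proliferation genes in part sets. The largest log2 fold changes were those of Nusap1, Ccnb1 and Plk1, at 4.71, 4.35 and 4.16. Among genes that the split does not name, Ccl5, a chemokine of effector cells, stood at 619, 434, 792 and 428 CPM in cycling members and at 1499, 2248, 2017 and 1695 CPM in the others (log2 fold change −1.71 ± 0.17, adjusted p = 4.214e-07 by edgeR). Ccr7 was lower (log2 fold change −1.16), and 16 of 21 immediate early genes tested were lower, with none higher. The count of immediate early genes fell to 2 with no library block, where the Ccr7 call was lost (adjusted p = 0.166 by edgeR), to 8 by DESeq2, to 9 of 20 without RT2, to 11 without RT1 and without RT3 each, and to 4 above the median depth. That of replication genes was 6 with no library block and by DESeq2, 10 of 14 without RT2 and 7 of 13 above the median depth. Gzmb did not pass (0.43 ± 0.15, adjusted p = 0.05593 by edgeR). H2afx was higher by 1.74 ± 0.36 (adjusted p = 0.002115 by edgeR). Cycling members were also deeper, with median UMIs of 1998, 2891, 3714 and 2340 against 1487, 1200, 1941.5 and 1232, and restricted to members above the median depth 63 genes were higher and 58 lower.

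Members with a Pdcd1 UMI, 47, 31, 119 and 38, showed few called genes against those without. No gene of 1843 was higher (0%) by edgeR, with 50 at an unadjusted p under 0.05, 0 by DESeq2 and 2 with no filter on low counts, and 11 were lower (0.597%). No gene was lower without RT1, without RT2 or with no library block, and 26 were lower without NT. Leaving out 1 library gave 0 to 3 higher, and without NT 2 cytotoxic genes and 1 cycling gene were higher. Rsad2, Ifit3, Isg15 and Ifit1, which are induced by interferon, were among the 11, with Rsad2 at 15.6, 31.0, 38.7 and 114 CPM with Pdcd1 and 100, 336, 303 and 212 CPM without (log2 fold change −2.47 ± 0.39, adjusted p = 0.02575 by edgeR). Members with a Pdcd1 UMI were deeper, with medians of 2209, 1966, 2687 and 2257 UMIs against 1482, 1179, 1613.5 and 1157.5. Among members above the median depth no gene was called, and of these 4 genes only Ifit1 could be tested there (log2 fold change −1.14, adjusted p = 0.999 by edgeR). The fold change of Rsad2 was −2.31 without RT1 and −2.33 with no library block. The part of depth in this split was not tested further. Tox, Havcr2, Ctla4 and Gzmb did not pass the test between members with and without a Pdcd1 UMI (adjusted p = 0.7433, 0.7571, 0.985 and 0.3017 by edgeR).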

How the data were processed

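Single-cell suspensions of the tumors were sequenced with a 3′ kit (SeekOne MM), and the authors deposited 1 table of UMI counts per gene and barcode for each library, made with SeekOne Tools. The submitters' processing notes also name STAR, Subread, featureCounts and Cell Ranger and the build GRCm39, with no role given. Deposited UMIs came to 69667759 in NT, 78585759 in RT1, 108699844 in RT2 and 85660188 in RT3 over 10141, 15346, 14994 and 15324 barcodes. The 18596 gene symbols present in every table were used. No doublet caller was run, and no doublet removal is stated in the sources used here.

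UMIs of the members were summed per library. RT and NT were compared through log2 ratios of CPM with 0.5 UMI added, for genes with a mean level of at least 50 CPM, leaving out the genes of the rule. Since NT is 1 library, only the size of a difference and exact Poisson or Clopper-Pearson 95% intervals were used, and these cover counting error only. Cell groups within libraries were compared on the summed counts with edgeR 4.0.16 (quasi-likelihood, TMM, filterByExpr, library as a block, Benjamini-Hochberg adjustment within each comparison, limma 3.58.1, R 4.3.3). The 2 cell groups of a library come from the same tumors, which pairs them. DESeq2 1.42.0 was an alternative. Tests over libraries use the spread between these 4 libraries, which edgeR pools in part over genes, and the cells of a library are not replicates. In the Tcf7 split this pooling was near complete, so its p-values hardly reflect the spread of a single gene. Named genes are members of the gene lists (as examples, the 2 to 4 of a list with the largest mean ratio among those on 1 side of NT in every RT library), the 10 in each direction with the largest smallest-library ratio between RT and NT, the 10 in each direction with the largest fold change among genes called in the same direction in 4 libraries, and the main inhibitory receptors. Exceptions are marked. The members and lists were chosen with earlier results of these data known. Some results of the comparisons are not reported here.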

Additional observations from a re-analysis of the deposited data

Results flagged for a closer look

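The ratios of RT to NT ran in opposite directions in CD8 T cells and in NK cells for Cst3 and Entpd1, in every RT library, and these differences were not tested. Cst3, the protease inhibitor cystatin C, had a mean log2 ratio of 2.35 ± 0.21 in CD8 T cells and −1.48 ± 0.66 in NK cells, a difference of 3.83. Entpd1, the ectonucleotidase CD39, had a mean log2 ratio of 1.51 ± 0.16 in CD8 T cells and −0.82 ± 0.31 in NK cells, a difference of 2.33. In macrophages Entpd1 stood at 87.4 CPM in NT and at 159.5, 156.3 and 152.1 CPM in the RT libraries. Its level in CD8 T cells was 36.7% of that in NT and 61.1%, 66.6% and 54.1% in the RT libraries. Without the 39 members with RNA of other types, its log2 ratio in CD8 T cells was 1.365 ± 0.184. The part of RNA from other cells in Entpd1 was not tested. The level of Cst3 in CD8 T cells was 6.94% of that in macrophages in NT and 33.2%, 19.2% and 24.3% in the RT libraries, and in NK cells Cst3 stood at 276 CPM in NT and at 62.3, 158 and 97.6 CPM in the RT libraries. Genes of antigen-presenting and myeloid cells did not all run the same way in the NK cells, and no list of them was counted. In NT and the RT libraries, H2-Ab1 stood at 821 and at 137, 130 and 26.6 CPM, and H2-Aa at 852 and at 281, 79.1 and 50.3 CPM. Apoe, a macrophage gene, was lower as well, at 113 CPM and at 52.98, 28.5 and 11.8 CPM. Lyz2 lay on both sides of NT, at 332 CPM and at 468, 191 and 73.9 CPM, as did Ccl6 and Cd68. Ccr2 stood at 288 CPM in NT and at 464, 332 and 299 CPM in the RT libraries, with RT3 level with NT. Mrc1 had no UMI in NT and 3, 7 and 2 UMIs in the RT libraries, too few to be read. Without the 39 members with RNA of other types, the log2 ratio of Cst3 in CD8 T cells was 2.03 ± 0.31. The part of RNA from other cells in Cst3 was not tested in NK cells.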

How the results depend on the processing

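No paired analysis was possible because NT is 1 library, so all comparisons of RT with NT are values without a test. The limit of under 3 UMIs of fibroblast, neutrophil and macrophage markers other than Ccr2, and the thinned shares of the granzymes and Cdkn1a, were chosen after seeing the data. Depth limits genes under about 50 CPM, since 3 UMIs in RT1 equal 26.6 CPM. The 64 genes higher by 2-fold became 152 and 26 with a level minimum of 20 and 100 CPM and 27 with intervals apart, and the 35 lower became 102, 9 and 13, then 23 with a pseudocount of 2 UMIs, 23 with at least 2 UMIs of both gate groups and 21 with under 3 UMIs of other types. Leaving out each RT library gave 76 to 106 higher and 59 to 67 lower. Medians of lists moved for exhaustion regulators (−0.23) to −0.36 with at least 2 gate UMIs, −0.018 without the deepest 10% of members and −0.33 at 100 CPM, for p53 targets (0.87) to 1.07 with no Rhox5 UMI, 1.06 without the deepest and 1.05 at 100 CPM (0.77 to 1.13 without each RT library), for inhibitory receptors to 0.18 without the deepest and 0.11 at 100 CPM, for interferon genes to 0.25 without the deepest and 0.31 with under 3 UMIs of other types, and for cytotoxic genes to 0.85 at 100 CPM. At 2000 UMIs per cell, RT minus NT in percentage points became −1.49 for Pdcd1, −3.69 for Havcr2, −24.0 for Tox, 5.27 for Ifng, 16.2 for Il7r, 31.2 for Gzmd, 26.0 for Gzme and 47.7 for Cdkn1a.

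Log2 ratios of genes held by the NT member with fibroblast RNA turned positive in the settings that left it out. All NT UMIs of Saa3, Rnd1, Thbs2, Col1a1 and Col1a2 were in that member, so NT then stood at 0 for them. Such ratios depend on the 0.5 UMI added and on the library totals, and are not read as higher levels in RT. With at least 2 gate UMIs they were 1.31 for Col1a1, 0.85 for Saa3, 1.23 for Iigp1, 1.76 for Rnd1, 2.19 for Thbs2, 0.39 for Sparc and 1.31 for Col1a2. Without the deepest 10% they were 1.59 for Col1a1, 0.82 for Saa3, 1.52 for Rnd1, 0.53 for Ptgs2, 2.53 for Thbs2, 0.68 for Sparc and 1.52 for Col1a2. With under 3 UMIs of other types they were 1.64 for Col1a1, 0.93 for Saa3, 0.052 for Iigp1, 2.17 for Rnd1, 2.69 for Thbs2, 0.96 for Sparc and 0.40 for Col1a2.

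The tests within libraries kept the library as a block. With no replicate block, CD8 T against NK cells gave 150 higher and 134 lower, against regulatory T cells 87 and 34, the Pdcd1 split 0 lower, and the cycling split 61 and 16. DESeq2 gave 110 and 109 against NK cells, 76 and 27 against regulatory T cells, 6 lower for Pdcd1, 13 lower for Tcf7, and 59 and 36 for cycling. With no filter on low counts there were 344 lower against NK cells, 250 higher and 33 lower against regulatory T cells, 2 higher and 17 lower for Pdcd1, 36 and 60 for Tcf7, and 187 higher for cycling. Among members above the median depth there were 73 and 20 against regulatory T cells, 0 lower for Pdcd1, 6 and 10 for Tcf7, and 63 and 58 for cycling, and with at least 2 gate UMIs 1 lower for Pdcd1. Leaving out each library gave 95 to 285 higher and 103 to 245 lower against NK cells, 65 to 177 and 22 to 66 against regulatory T cells, 0 to 3 and 0 to 26 for Pdcd1, 4 to 21 and 8 to 32 for Tcf7, and 72 to 111 lower for cycling. The causes were not tested.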

Other observations

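Other gene groups of CD8 T cells that no comparison above describes are given here as values, beside 21.5% of all measured genes that were higher and 32.7% that were lower in every RT library. Of 11 heat shock genes measured, 8 were lower and none was higher in every RT library, with Hspa1b, an inducible HSP70, at 4688 CPM in NT and 2988, 2838 and 2942 CPM in the RT libraries. Hspd1, the mitochondrial chaperonin HSP60, stood at 698 CPM in NT and at 408, 407 and 424 CPM in the RT libraries. All RT levels of both genes lay below NT. Of 21 interferon response genes measured, 6 were higher and 4 lower in every RT library, with Ifit1 at 152 CPM in NT and 514, 229 and 323 CPM in the RT libraries. Of 15 genes of the MHC class I pathway measured, 5 were higher and 3 lower, with the class I gene H2-K1 at 3597 CPM in NT and 5718, 4208 and 4208 CPM in the RT libraries. Of 22 immediate early genes measured, 7 were higher and 3 lower, with the stress-induced factor Atf3 at 545 CPM in NT and 1427, 1357 and 975 CPM in the RT libraries. Of 20 genes of T cell receptor signaling measured, 3 were higher and 7 lower, shares near those of all genes.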
